A study of Mus musculus with 2 samples.

Results

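The cells described here were CD8 T cells of mouse peritoneal tumors that carried RNA of Tcf7 or Lef1 and no RNA of the cytotoxic genes Gzmb and Prf1. They were chosen by their own measured UMIs (unique molecular identifiers, each standing for 1 captured RNA molecule): at least 1 UMI of Cd3d, Cd3e or Cd3g, at least 2 UMIs of Cd8a and Cd8b1 together, 0 of Cd4, 0 of Gzmb and Prf1, at least 1 of Tcf7 and Lef1, and at most 1 of the division genes Mki67 and Top2a. The rule found 1019 of 15156 kept cells, 588 of 8770 in the control IgG library and 431 of 6386 in the Activin A neutralizing antibody library. They are called Tcf7/Lef1 CD8 cells below.

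The study asked how neutralizing Activin A, a TGF beta family ligand, changes the cells of ovarian tumors. Female C57BL/6 mice of 6 to 8 weeks had the peritoneum abraded and received syngeneic p53-/-, myc, Hras ovarian cancer cells into the peritoneal cavity, and from the next day a daily intraperitoneal dose of either control IgG or the antibody for 10 days. Tumors at the abrasion site were pooled before capture, from 7 mice given control IgG and from 8 given the antibody, and each pool made 1 droplet 3' RNA library. The paper calls the cancer cells SO and gives other numbers of mice for its single-cell experiment and another number of days, and the groups are given here as the labels give them. Every mouse received the same cancer line, and both groups had the abrasion.

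With 1 library per group there is no replicate, no test between groups was possible, and an effect of the antibody cannot be told apart from any other difference between the 2 pools or libraries. Brackets give exact 95% intervals (Clopper-Pearson for shares, Poisson for levels, conditional binomial for ratios), which cover counting error only. Levels are CPM (the usual counts-per-total unit: UMIs of a gene, summed over cells and scaled to one fixed total for every group of cells), and since 3' counting reads 1 end of each RNA they are not scaled by gene length.

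Tcf7 and Lef1 encode related transcription factors of the Wnt pathway that T cells need to develop and that mature CD8 cells keep in the naive and memory states. In tumors and chronic infection, CD8 cells that keep Tcf7 are known as the pool from which more differentiated cells arise, while cells that have lost it carry granzymes, perforin and inhibitory receptors. Naive and central memory cells also express the lymph node homing receptor Ccr7 and the IL-7 receptor chain Il7r. Activin A signals through the receptors Acvr2a or Acvr2b with Acvr1b, which phosphorylate Smad2 and Smad3.

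The libraries held 98174850 and 74117462 UMIs, control IgG first here and wherever 2 values are paired. The Tcf7/Lef1 CD8 cells held 2832563 and 1802363 of them, with a median of 4042 and 3659 UMIs and 1787 and 1722 genes per cell, shallower than the cytotoxic CD8 cells (at least 1 Gzmb or Prf1 UMI, with or without Tcf7 and Lef1, and the same terms for Cd3, Cd8, Cd4 and division) at 5223 and 4559. The 2 libraries shared 19 barcodes among kept cells, and no barcode was a Tcf7/Lef1 CD8 cell in both. At least 2 UMIs of the B cell genes Cd79a, Cd79b and Ms4a1 were in 6 and 4 of the chosen cells, of the macrophage genes C1qa, C1qb and C1qc in 13 and 3, and of the neutrophil genes S100a8 and S100a9 in 0 and 1. Wider marker lists of these cell types, described further down, had UMIs in more of the cells. Trac, the alpha chain constant region of the T cell receptor, was detected in 75.3% and 74.2% of the cells and Trdc, the delta chain, in 2.04% and 1.16%. By genes that other cell types express, free RNA taken up in the droplets was estimated as 13.5% and 13.7% of the UMIs of these cells. The estimate divides the level of 26 such genes in the cells, 663 and 687 CPM, by that in free RNA, 4900 and 5026. RNA of doublets, which were not removed, enters it as well. Subtracting it left 13 and 8 of the 13 mitochondrially encoded genes at 0, so it was too high for those genes.

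The cells at the edge of the rule were many, as a few UMIs decide membership. Of the chosen cells, 130 and 113 had exactly 2 Cd8 UMIs, while 171 and 145 cells just outside had 1 and met every other term. A single Tcf7 or Lef1 UMI admitted 136 and 124 cells, against 140 and 162 with none. A single Gzmb or Prf1 UMI kept 206 and 133 cells out. Among those chosen, 324 and 195 had both Tcf7 and Lef1, 169 and 127 had Lef1 alone, and 95 and 109 had Tcf7 alone. These are values the choice used, so the counts only describe it. When every cell was thinned to 2000 UMIs (10 draws), the rule found a mean of 410.3 and 289.6 cells, 4.80% and 4.72% of those deep enough.

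**Figure D1:**
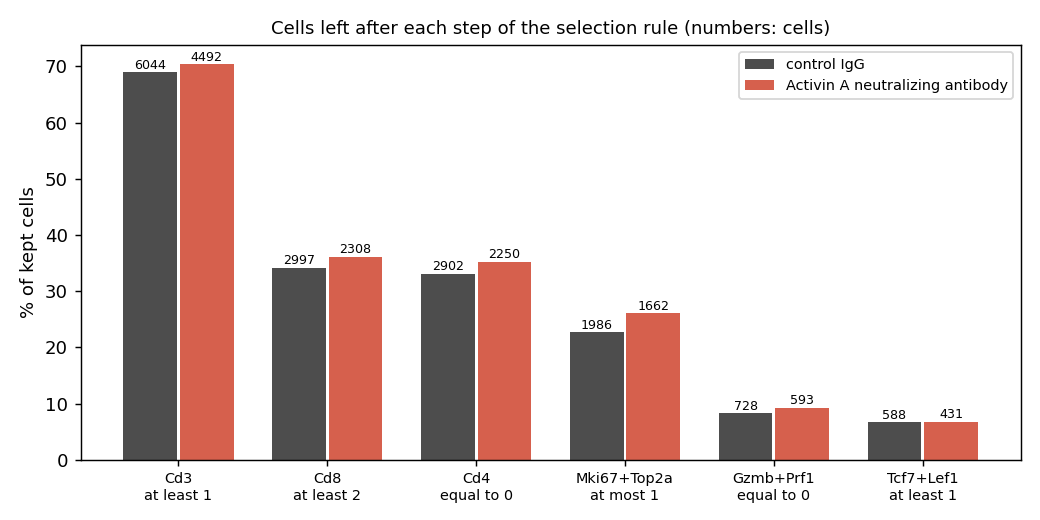
Share of kept cells (y axis, %) left after each step of the rule (x axis), for the control IgG and the antibody library, with the number of cells above each bar. Both libraries end at nearly the same share, 6.70% and 6.75%, and the antibody library keeps a larger share at the steps before.

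Tcf7/Lef1 CD8 cells made up nearly the same share of both libraries. They were 6.70% (6.19 to 7.25) of kept cells with control IgG and 6.75% (6.15 to 7.39) in the antibody library, and the log2 ratio was 0.01 (-0.17 to 0.19). Cytotoxic CD8 cells were 14.3% and 16.7%, a log2 ratio of 0.22 (0.10 to 0.34). CD8 cells with none of the 4 genes (no Gzmb, Prf1, Tcf7 or Lef1 UMI, called other CD8 cells) were 1.60% and 2.54%, a log2 ratio of 0.67 (0.33 to 1.00). Counted only among non-dividing CD8 cells, the Tcf7/Lef1 cells were 29.6% (27.6 to 31.7) and 25.9% (23.8 to 28.1), a log2 ratio of -0.19 (-0.37 to -0.01). The denominator therefore set whether the interval of the ratio held 0.

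The genes that define the cells behaved as the rule requires, and the 2 markers outside the rule were present in part of them. Cd8b1 was at 635 and 617 CPM, Cd8a at 418 and 460, Lef1 at 584 and 510 and Tcf7 at 345 and 371, in 71.3% and 70.5% of cells for Tcf7. These 4 are values the choice used. Il7r, which was not used, was at 593 and 419 CPM and was detected in 63.4% and 53.4% of the cells, against 31.2% and 24.8% of cytotoxic CD8 cells. Dapl1, a marker of naive and early memory CD8 cells, was at 71.7 and 53.3 CPM in 14.8% and 11.8% of the cells, against 1.35% and 0.748% of cytotoxic CD8 cells. On build mm10 (GENCODE M21 positions), Tcf7 lies at chr11:52252371-52283014 (minus strand), Lef1 at chr3:131110471-131224356, Il7r at chr15:9505788-9530176 (minus strand) and Dapl1 at chr2:59484653-59505020.

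Although they were chosen for lacking Gzmb and Prf1, most of these cells carried RNA of effector cells. Ccl5, a chemokine that memory and effector CD8 cells store, was at 8913 and 10253 CPM, the second most abundant RNA outside ribosomal and mitochondrial genes after Tmsb4x. Nkg7, a cytotoxic granule protein, was at 1194 and 1291 CPM. A Ccl5 or Nkg7 UMI was found in 96.3% (94.4 to 97.6) and 97.7% (95.8 to 98.9) of the cells. A single such UMI is near background, since 33.6% and 19.9% of B cells without Cd3 (217 and 136 cells, median 2903 and 2780 UMIs) also had one. At 10 or more UMIs of the pair the background depended on the cell type taken for it: 77.6% (74.0 to 80.9) and 78.2% (74.0 to 82.0) of Tcf7/Lef1 CD8 cells reached it, against 0 of 217 and 3 of 136 B cells, 97.1% and 97.8% of cytotoxic CD8 cells, and 41.3% and 43.1% of conventional CD4 cells (Cd4 positive, without Cd8 and Foxp3 UMIs). Of macrophages without Cd3 (1167 and 335 cells, deeper at a median of 7436 and 6261 UMIs), 22.7% and 18.8% also reached 10, with Ccl5 at 1326 and 1151 CPM and Nkg7 at 14.2 and 8.59. The Tcf7/Lef1 CD8 cells lay above both kinds of cells, though not as far from the macrophages as from the B cells. The median Tcf7/Lef1 CD8 cell held 34 and 31 Ccl5 UMIs. Free RNA of both libraries held 2736 and 2787 CPM of Ccl5, well under the level in the cells. Ccl5 lies at chr11:83525778-83530518 and Nkg7 at chr7:43437073-43438249.

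Other granzymes and effector genes were present in fewer cells. Gzma was at 191 and 140 CPM, detected in 14.5% and 13.7% of the cells, and Gzmk, the granzyme of less differentiated memory cells, at 79.4 and 84.3 CPM in 22.6% and 23.4%. The chemokine receptors Cxcr3 and Cxcr6 were detected in 39.1% and 36.2%, and in 42.3% and 45.2%. The inhibitory receptor gene Pdcd1 (PD-1) was detected in 30.3% and 35.0%, Ctla4 in 38.9% and 47.1%, and Tox, a factor of chronically stimulated cells, in 63.3% and 70.1%. Havcr2 (TIM-3), a receptor of terminally exhausted cells, was rare, at 4.93% and 6.26%. Slamf6, a surface protein of Tcf7 expressing cells in tumors, was in 49.7% and 37.1%.

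The homing receptor Ccr7 (chr11:99144196-99155077, minus strand), which guides T cells into lymph nodes, was in a small part of the cells. It was at 45.5 CPM (38 to 54.1) with control IgG and 49.9 (40.2 to 61.4) in the antibody library, in 12.1% (9.55 to 15.0) and 13.0% (9.97 to 16.5) of the cells. It was found in 1.83% and 1.78% of cytotoxic CD8 cells, 2.86% and 3.09% of other CD8 cells and 4.68% and 4.10% of conventional CD4 cells, so its share was highest in the Tcf7/Lef1 CD8 cells among these 4 T cell populations. The counting intervals of that share did not overlap those of the other T cell populations in either library. With each cell thinned to 2000 UMIs the share was 6.75% and 7.64%, against 0.944% and 0.879% in cytotoxic CD8 cells.

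B cells also express Ccr7, which was found in 33.2% and 36.8% of B cells without Cd3, and RNA of B cell markers was present in the droplets. The 10 B cell markers summed to 2059 and 1334 CPM in the Tcf7/Lef1 CD8 cells, led by Cd74 at 1103 and 694 CPM, and 69.2% and 44.1% of the cells had a UMI of one, with none of the 10 markers at 0. Free RNA held 4969 and 2885 CPM of them. At least 2 UMIs of Cd79a, Cd79b and Ms4a1 together were in only 6 and 4 of the Tcf7/Lef1 CD8 cells. Which cells the marker RNA came from, and the part of B cell RNA in the level of Ccr7, were not tested.

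The cells differed among themselves by how much effector RNA they held. Split at 10 UMIs of Ccl5 and Nkg7 together, a split chosen after the values were seen, 132 and 94 cells lay under it, 22.4% (19.1 to 26.0) and 21.8% (18.0 to 26.0), and 456 and 337 reached it. The median depth of both kinds was close, at 3904 and 3675 UMIs under the split and 4098 and 3641 above it. The CPM values below weigh each cell by its UMIs, and the part of the largest cells in them was not tested. The rule did not use these genes, but every value below comes from the same cells as the split and is a description.

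Cells with little Ccl5 and Nkg7 RNA had more RNA of naive genes. The 19 naive and homing genes summed to 7598 CPM (7371 to 7830) in the control IgG cells under the split and 4078 (3995 to 4162) in those above it, and to 6740 and 3732 CPM in the antibody library. The 33 effector and memory genes other than Ccl5 and Nkg7 went the other way, from 3802 to 10650 CPM with control IgG and from 5485 to 10794 with the antibody. Inhibitory receptor genes were at 911 and 1361 CPM with control IgG and 1142 and 1756 with the antibody. Glycolysis genes were higher above it, at 2279 and 3386 CPM with control IgG and 2312 and 2745 with the antibody, and ribosomal protein RNA was lower above the split, at 265142 and 199207 CPM and at 230833 and 190035. For each of these lists the order was the same in both libraries, and the counting intervals of both kinds of cells did not overlap.

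**Figure D2:**
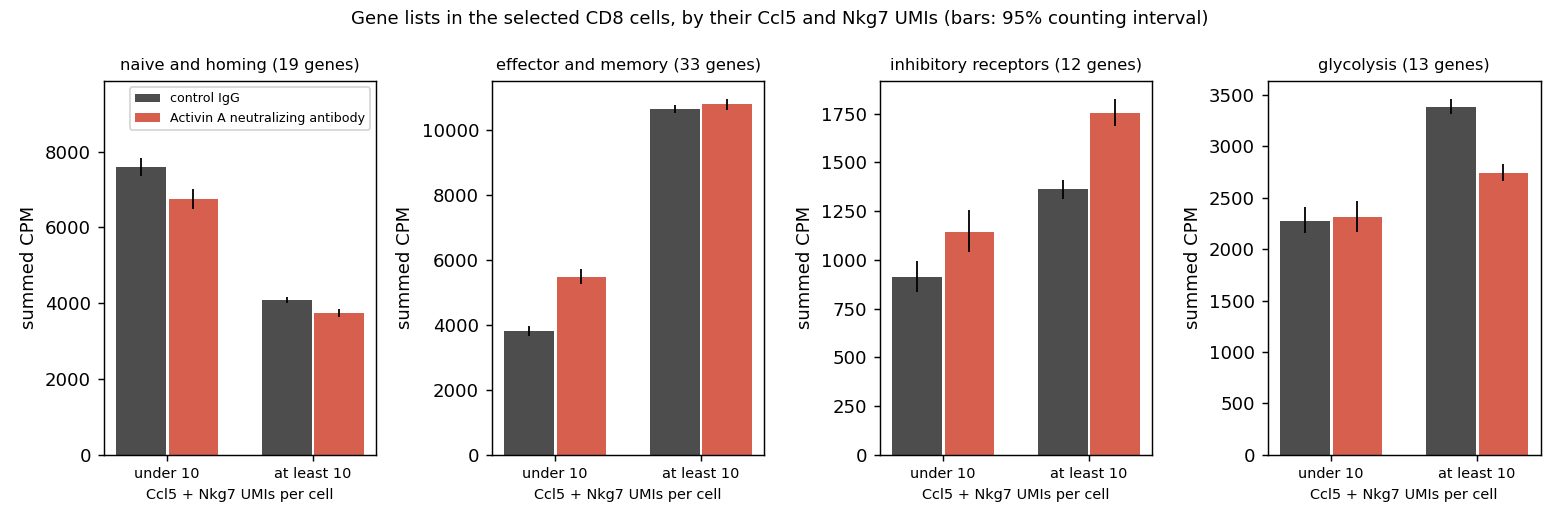
Summed CPM (y axis) of 4 gene lists in Tcf7/Lef1 CD8 cells with under 10 and at least 10 UMIs of Ccl5 and Nkg7 (x axis), with a color per library and bars for the 95% counting interval. Naive and homing genes are higher under the split (7598 and 6740 CPM against 4078 and 3732), and effector and memory genes, counted without Ccl5 and Nkg7, are higher above it (10650 and 10794 CPM against 3802 and 5485).

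On the log2 (CPM + 10) scale, 32 of 8021 genes (0.399%) were at least 2-fold higher under the split in both libraries and 76 (0.948%) at least 2-fold lower. Ranked by the smaller of the 2 libraries' ratios, Dapl1 came first, at 221 and 156 CPM under the split against 35.2 and 24.8 above it, in 40.9% and 37.2% of the cells against 7.24% and 4.75%. Satb1, a chromatin organizer of naive T cells, was at 986 and 938 against 294 and 230 CPM. St6gal1, a sialyltransferase, was at 177 and 125 against 39.6 and 28.3. These genes were thus found in part of the cells on both sides of the split and were more frequent under it. The other genes of the 10 highest were Nsg2, Patj, Usp28, Rapgef4, Auts2, Gm14085 and Gm16083, with log2 ratios of at least 1.55 in both libraries, and with control IgG alone Auts2 (3.40) and Gm14085 (3.07) lay above Dapl1 (2.35). Of the listed genes, Ccr7 was at 98.6 and 133 against 32.5 and 26.9 CPM, and Bcl2, which keeps resting lymphocytes alive, at 1013 and 1019 against 404 and 267.

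The 10 genes lower under the split included effector and chemokine genes. Gzma was at 25.1 and 23 CPM against 232 and 172, Ccl4 at 96.8 and 84.3 against 336 and 567, and Ccl3 at 5.38 and 10.2 against 45.3 and 71.6. The chemokine receptor gene Cxcr6, known from tissue resident T cells, was at 59.2 and 66.4 against 225 and 256 CPM, in 15.9% and 19.1% against 50% and 52.5% of the cells. Pdcd1 was at 35.9 and 56.2 against 152 and 205 CPM, in 8.33% and 14.9% against 36.6% and 40.7%. Both receptors were therefore much more frequent in the cells with effector RNA. Gm36723 and Trf were also among the 10, as were Dcn, Igfbp6 and Serping1, which stromal cells express and of which Dcn was found in 5.30% and 1.06% of cells under the split and 2.63% and 2.08% above it.

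Set beside the other T cells of each library, the Tcf7/Lef1 CD8 cells had more RNA of naive genes, while less RNA of effector genes was seen against the cytotoxic CD8 cells. The rule used part of this contrast, so the values are a description and nothing is drawn from their number. Against cytotoxic CD8 cells, 41 of 10731 genes (0.382%) were at least 2-fold higher in both libraries on the log2 (CPM + 10) scale and 31 (0.289%) at least 2-fold lower, 0.671% in all. Of the naive and homing list, 8 of 18 measured genes were among those higher and none among those lower, with a median log2 ratio of 1.08, against a median of 0.02 over all measured genes. Of the effector and memory list, 0 of 35 were higher and 4 lower, with a median of -0.74. Against the other CD8 and the conventional CD4 cells, described next, that list had 0 of 34 genes past 2-fold either way (0.507% of all genes were) with a median of -0.24, and 6 of 35 higher and 3 lower (0.595% and 0.813% of all genes) with a median of 0.19, so that its direction depended on the population set beside it. The naive and homing list had 8 of 17 genes higher with a median of 1.07, and 6 of 18 with a median of 0.84, with none lower. Of the 12 genes of the inhibitory receptor list, which also holds Tox, 1 was higher and 4 lower against cytotoxic CD8 cells, with a median of -0.59. None was past 2-fold against other CD8 cells (median -0.54), and 1 was higher and 1 lower against conventional CD4 cells (median -0.21).

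The 12 genes higher by the largest ratios against cytotoxic CD8 cells included several known from naive or resting T cells. Dapl1 was at 71.7 and 53.3 CPM against 4.54 and 2.18, Il7r at 593 and 419 against 159 and 108, and Ccr7 at 45.5 and 49.9 against 8.68 and 8.72. Bcl2 was at 524 and 431 against 108 and 121 CPM, and Bach2, a repressor that holds T cells back from effector fate, at 596 and 559 against 168 and 178. Aff3, a nuclear elongation factor of lymphocytes, was at 543 and 444 against 99.5 and 81.5, and Fgf13, which encodes a factor kept inside the cell, at 462 and 400 against 107 and 97.9. Cmah was at 241 and 193 against 69.2 and 52.3, and St6gal1 at 66.7 and 49.4 against 11 and 9.62, both genes of sialic acid chemistry. Pde2a, a phosphodiesterase gene, was at 105 and 91.0 against 31.3 and 25.1. The remaining genes, Rapgef4 and Nsg2, were at 72.7 and 47.2 against 9.08 and 6.72, and at 52.6 and 35.5 against 5.61 and 5.81 CPM. For each of these 12, both values lay above both values of the cytotoxic cells.

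The 12 genes lower by the largest ratios included cytotoxic, chemokine and exhaustion genes. Gzma was at 191 and 140 CPM against 1470 and 848, Ccl3 at 37.4 and 58.3 against 158 and 230, and Ccl4 at 289 and 462 against 968 and 1197. The inhibitory receptors Lag3 and Havcr2 were at 34.6 and 59.9 against 119 and 185, and at 12.4 and 27.7 against 106 and 83.5. Entpd1 (CD39), an ectonucleotidase of tumor reactive CD8 cells, was at 35.7 and 35.5 against 126 and 122. Gm36723, Tmem163, Setbp1, 2900026A02Rik, AA467197 and Glrx made up the rest, with log2 ratios between -1.37 and -2.47.

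**Figure D3:**
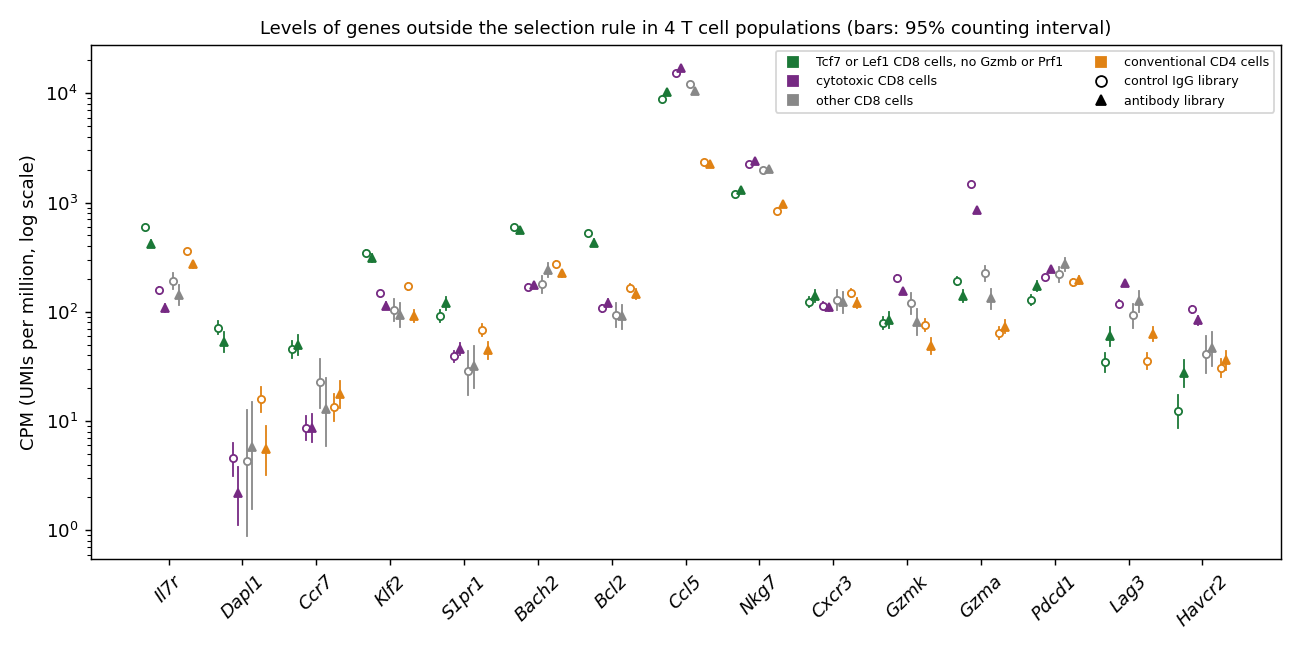
CPM (y axis, log scale) of genes outside the selection rule (x axis) in Tcf7/Lef1 CD8, cytotoxic CD8, other CD8 and conventional CD4 cells, with circles for the control IgG and triangles for the antibody library and bars for the 95% counting interval. Il7r, Dapl1, Bach2 and Bcl2 are highest in the Tcf7/Lef1 CD8 cells (Il7r 593 and 419 CPM), while Ccl5 is high in all 3 CD8 populations and Gzma in the cytotoxic one (1470 and 848 CPM).

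Against the other CD8 cells, which also lack Gzmb and Prf1 and differ in the rule by Tcf7 and Lef1 alone, 36 of 8674 genes (0.415%) were at least 2-fold higher in both libraries and 8 (0.0922%) lower, 0.507% in all. Il7r was at 593 and 419 CPM against 192 and 143, Bcl2 at 524 and 431 against 94.4 and 91.1, and Klf2, the factor that drives S1pr1, at 343 and 309 against 104 and 94. Dapl1, Aff3, Fgf13, Cmah, Rapgef4 and Nsg2 were again among the 12 with the largest ratios. Gzma, by contrast, was at 191 and 140 CPM against 226 and 133, a near equal level. Several of the lower genes belong to stromal or cancer cells, with Timp1 at 65.3 and 32.2 against 371 and 110 and Fn1 at 131 and 125 against 454 and 283 CPM. The other CD8 cells numbered 140 and 162, and the 10 fibroblast and mesothelial markers summed to 3342 and 60.7 CPM there against 292 and 156 in the Tcf7/Lef1 CD8 cells. The part of stromal RNA in these ratios was not tested.

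Against conventional CD4 cells, 60 of 10086 genes (0.595%) were at least 2-fold higher in both libraries and 82 (0.813%) lower, 1.41% in all. The highest ratio was that of Gm44174, at 329 and 349 CPM against 1.58 and 1.39, and Smyd1 was at 67.8 and 59.4 against 1.58 and 1.39. Both genes lie beside the CD8 genes used by the rule. Gm44174 lies at chr6:71353035-71373284, between Cd8b1 and Cd8a, and ends 143 bases before Cd8a (chr6:71373427-71379173) on the same strand. Smyd1 lies at chr6:71213940-71322233 on the minus strand, so that its start is the side 555 bases from Cd8b1 (chr6:71322788-71337494). Reads of the Cd8 transcripts counted to Gm44174, on the same strand, cannot be told apart from its own RNA, while Smyd1 lies on the opposite strand. Klrd1 and Klrk1, receptors shared with natural killer cells, were at 531 and 414 against 87.7 and 100.1, and at 117 and 103 against 16.1 and 17.7 CPM. Helper cell genes were lower, Cd40lg at 1.77 and 5.55 against 73.2 and 101, Tnfrsf4 (OX40) at 5.65 and 8.32 against 169 and 235, and Maf at 13.8 and 16.6 against 216 and 294.

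Between the 2 libraries, few genes of the Tcf7/Lef1 CD8 cells differed in a way that was spread over the cells. Of 8021 genes with at least 50 UMIs, 7 (0.0873%) were at least 2-fold higher with the antibody and 48 (0.598%) at least 2-fold lower, in all 0.686%. In 52 of these 55, a single cell held over 10% of the gene's UMIs. The 3 without such a cell were Gm10076 (771 and 374 CPM), which was lower, and Gm11290 (191 and 452) and Slfn5 (16.9 and 47.7), which were higher. These 3 were singled out after their values were seen. Gm10076 had log2 ratios of -1.13 in cytotoxic CD8 cells and -1.07 in conventional CD4 cells as well, and Gm11290 had 1.21 and 1.31. Free RNA showed both differences too, at -1.01 for Gm10076 and 1.57 for Gm11290. Slfn5 had 0.21 in cytotoxic CD8, 0.35 in conventional CD4 and 0.66 in other CD8 cells and 0.28 in free RNA. Its ratio was 1.10 in the Tcf7/Lef1 CD8 cells, and whether these values differed was not tested. In the Tcf7/Lef1 CD8 cells Slfn5 fell under 2-fold in some settings. It was 0.74 with at most 1 Gzmb or Prf1 UMI in the rule, 0.66 with cells thinned to 2000 UMIs and 0.55 with a pseudocount of 50 CPM. Gm11290 stayed past 2-fold in these settings, at 1.28, 1.47 and 1.06.

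The largest differences were in genes known from other cell types, most with a large part of their UMIs in 1 cell. Saa3, an acute phase protein of stromal and myeloid cells, was at 351 and 17.8 CPM, in 103 and 26 cells, with 520 of its 995 control IgG UMIs in 1 of them, and at 43.1 and 18.9 CPM once the 17 and 6 cells above 3 times the median UMIs were left out. Acta1 and Tnnc2, muscle genes, were at 117 and 11.1 and at 52.2 and 6.10 CPM, with 286 of 331 and 125 of 148 UMIs in 1 cell. Tcap, a further muscle gene, was at 28.2 and 1.11 CPM, with 71 of 80 control IgG UMIs in 1 cell. Krt8, a keratin, had 99 UMIs in 2 control IgG cells, 88 of them in 1, and 0 with the antibody. In the other direction, Dlk1, a gene of the cancer-like cells, was at 15.9 and 146 CPM, with 229 of 263 antibody UMIs in 1 cell, and at 18.1 and 18.4 CPM among the cells with no Mki67 or Top2a UMI. The macrophage genes C1qb and C1qc were less concentrated, at 89.3 and 16.1 CPM in 32 and 6 cells and at 47.7 and 6.10 CPM in 18 and 3 cells, with 25.9% and 23.3% of their UMIs in 1 cell. Without the 17 and 6 largest cells they were at 17 and 17.1 and at 7.12 and 6.49 CPM, and Krt8 was at 0 in both libraries. The muscle genes kept their difference in that setting, with Acta1 at 129 and 11.8, Tnnc2 at 58.1 and 6.49 and Tcap at 31.6 and 1.18 CPM. They lost most of it under 2 stricter forms of the rule. With at least 3 Cd8 UMIs, Acta1 was at 16.3 and 12.3, Tnnc2 at 7.27 and 5.08 and Tcap at 2.57 and 0.725 CPM. With at least 2 Tcf7 or Lef1 UMIs, they were at 15.5 and 12.3, 8.39 and 6.91, and 2.65 and 1.54 CPM. Slpi, Tpm2, Hspb1, Ccl2 and Ptgis were the other lower genes of the 12, each with 1 cell holding between 44.1% and 78.5% of the UMIs.

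Of 8 tested macrophage markers, 7 were lower with the antibody, 5 of them by at least 2-fold (0.598% of all genes were), and the 9 markers summed to 593 and 344 CPM, led by Apoe with control IgG and by Lyz2 with the antibody, with none at 0 and a UMI of one in 35.5% and 13.7% of the cells. The 10 fibroblast and mesothelial markers summed to 292 and 156 CPM, with Dcn the most abundant and 1 and 2 markers at 0. The 7 cancer-like markers summed to 181 and 233 CPM and the 7 natural killer markers to 318 and 245. Neutrophil, dendritic cell and red cell markers summed to 8.47 and 57.1, 20.5 and 23.3, and 0.353 and 0.555 CPM, and gamma delta T cell markers to 29.7 and 21.1, led by Tcrg-C2. Markers of NKT and MAIT cells summed to 65.7 and 58.3 CPM, led by Cd160, and those of CD4 and regulatory T cells to 209 and 240, led by Ikzf2. Macrophage markers in cytotoxic CD8 cells were at 861 and 171 CPM and in free RNA at 3092 and 1757 CPM. The part of such RNA in the differences between the libraries was not tested beyond leaving out cells.

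Of the 12 highest genes, most were found in few cells. Rgs16, a regulator of G protein signalling that activated T cells express, was at 8.83 and 43.3 CPM in 2.89% and 9.98% of the cells, with a log2 ratio of 1.5 and 10.7% of its UMIs in 1 cell. Cxcl9, Trf, Il1b, Dlg2, Gpat3, Ccnd1 and Igfbp4 had between 10.7% and 49.0% of their UMIs in 1 cell and were found in between 1.16% and 9.01% of the cells.

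Some differences of smaller size were spread over more cells. Farp1 was at 82.3 and 166 CPM, in 25% and 37.8% of the cells, with no cell above 1.13% of its UMIs. Tnfaip3 (A20), an inhibitor of NF-kB signalling that is induced by it, was at 179 and 339 CPM, in 46.6% and 61.9% of cells, a log2 ratio of CPM of 0.92 (0.75 to 1.10). Tnfrsf1b (TNF receptor 2) was at 60.4 and 119 CPM and Nr4a1, an immediate-early gene of T cell receptor signalling, at 49.8 and 96.5. Lower with the antibody were Tsc22d3 (GILZ), a glucocorticoid-induced gene, at 226 and 122 CPM, a log2 ratio of CPM of -0.89 (-1.11 to -0.66), and Rras2 at 185 and 103. Id3, a factor of memory precursor cells, was at 64.3 and 29.4 CPM in 16.8% and 9.74% of the cells, with 1 control IgG cell holding 37 of its 182 UMIs there. Of these genes Rras2 alone had the opposite sign in another T cell population. On the log2 (CPM + 10) scale Tnfaip3, 0.89 here, had 0.66 in cytotoxic CD8, 0.38 in other CD8 and 0.70 in conventional CD4 cells and 0.90 in free RNA. Tsc22d3, -0.84 here, had -0.48, -1.03 and -0.83 in those cells and -0.41 in free RNA, and Nr4a1, 0.83 here, had 0.48, 0.73 and 0.75, and 1.31 in free RNA. Rras2, -0.78 here, had -0.12, 0.22 and -0.11 in those cells and 0.36 in free RNA. Of these, Tnfaip3, Tnfrsf1b, Nr4a1, Tsc22d3 and Rras2 were singled out after their values were seen.

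**Figure D4:**
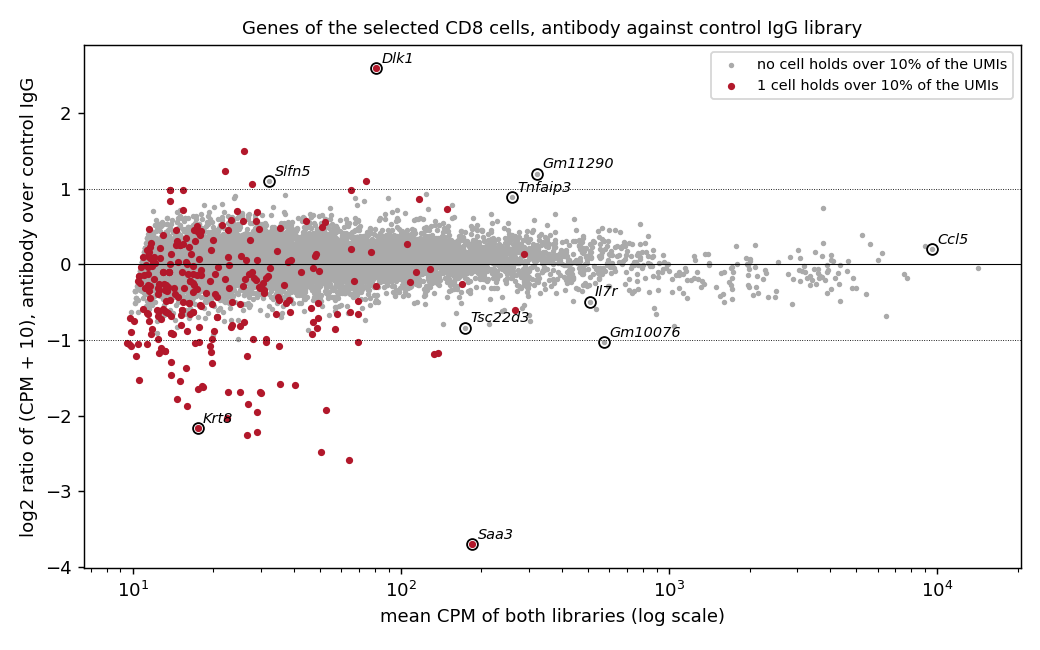
Log2 ratio of (CPM + 10), antibody over control IgG (y axis), against mean CPM of both libraries (x axis, log scale) for the 8021 genes with at least 50 UMIs in Tcf7/Lef1 CD8 cells. Red points are genes of which 1 cell holds over 10% of the UMIs, dotted lines mark 2-fold, and nearly all points beyond the lines are red (52 of 55).

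Gene lists moved by small amounts, several of them much as in the other T cells of the same libraries. Over all 8021 genes the median log2 ratio was 0.05. The interferon-stimulated list had a median of 0.28, with 29 of 33 genes above 0 and 1, Slfn5, higher by 2-fold (0.0873% of all genes were). Slfn5 was under 2-fold with at most 1 Gzmb or Prf1 UMI in the rule (0.74) and when thinned (0.66). In cytotoxic CD8, other CD8 and conventional CD4 cells the medians of the list were 0.35, 0.23 and 0.30. Ifi27l2a, its most abundant gene, was at 635 and 924 CPM and Isg15 at 86.8 and 114. The immediate-early and heat shock list had a median of 0.26, with 19 of 23 genes above 0 and none past 2-fold, against 0.30, 0.32 and 0.31 in the other populations. The glycolysis list had a median of -0.28, with 2 of 13 genes above 0, against -0.37, -0.48 and -0.25, and was -0.10 without the cells with UMIs of other lineages and -0.08 without those above 3 times the median UMIs. Mitochondrially encoded genes were lower in all 13 cases, with a median of -0.33, against -0.15, -0.11 and -0.29 in the other populations. The median mitochondrial share per cell was 3.57% and 2.67%, and over all kept cells it was 2.98% and 2.32%. Free RNA held 382647 and 225400 CPM of these 13 genes. Subtracting its estimated share left 13 and 8 of them at 0, so the median of 0 this gave is no measure of a difference. Lists of T cell receptor signalling (0.21, with 14 of 18 genes above 0), common gamma chain cytokine signalling (0.11, 10 of 16) and MHC class I (0.10, 9 of 12) had no gene past 2-fold. The T cell transcription factor list had a median of -0.01, with 6 of 12 genes above 0, and its sign changed between settings. Ribosomal protein genes had -0.11, with 24 of 84 above 0.

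The inhibitory receptor list had a median log2 ratio of 0.37 in the Tcf7/Lef1 CD8 cells, with 8 of 12 genes above 0 and none past 2-fold, against 0.03 in cytotoxic CD8, 0.28 in other CD8 (7 of 9 above 0) and 0.16 in conventional CD4 cells. It was 0.12 with cells thinned to 2000 UMIs, and whether the medians of the populations differed was not tested. Tox was at 502 and 690 CPM, Ctla4 at 177 and 262, Pdcd1 at 129 and 173 and Lag3 at 34.6 and 59.9. Slamf6 went the other way, at 183 and 151 CPM, and Tigit at 17.3 and 15.5. Tox and Lag3 had log2 ratios of 0.49 and 0.60 in the cytotoxic cells too, so that it was Ctla4 (0.54 against 0.18) and Havcr2 (0.76 against -0.31) whose values lay furthest apart among the genes given here, Havcr2 at 12.4 and 27.7 CPM.

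The naive and homing list had a median of -0.09, with 6 of 16 genes above 0 and a median of 0.02 with at least 1 Cd8 UMI in the rule, and the effector and memory list 0.14, with 23 of 34 above 0, none past 2-fold in either. The naive and homing median was 0.0019 in cytotoxic CD8, 0.31 in other CD8 and -0.32 in conventional CD4 cells. Within the first list, Il7r, Foxp1 (952 and 739 CPM) and Txk (191 and 146) were lower, while S1pr1 (91.4 and 119) and Foxo1 (198 and 242) were higher. Il7r had log2 ratios of -0.49 here, -0.52 in cytotoxic CD8 and -0.38 in conventional CD4 cells. Klf2 was at 343 and 309 CPM, a log2 ratio of -0.15, against -0.34 and -0.83 there. Within the second, Ccl4 (289 and 462 CPM), Ifng (56.5 and 84.3), Tbx21 (108 and 159) and Il2rb (261 and 331) were higher and Gzma, Klrd1 and Ly6c2 (344 and 254) lower. Ccl4 was detected in 38.4% and 36.7% of the cells, so its share did not follow its level, and Ifng in 15.5% and 22.7%.

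**Figure D5:**
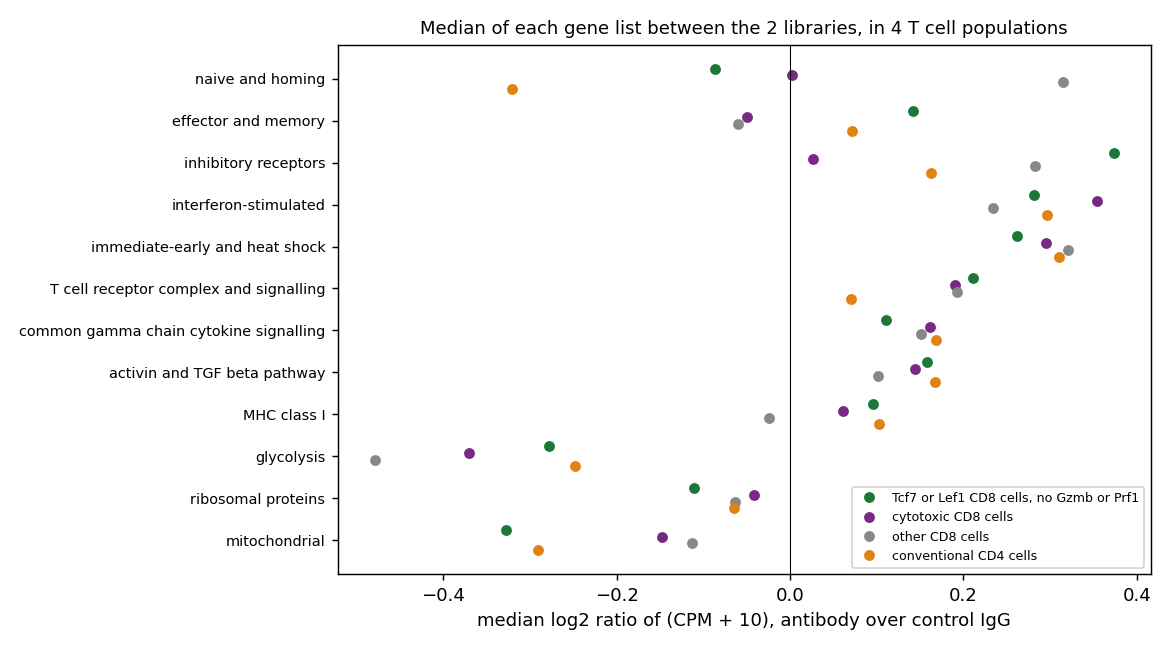
Median log2 ratio of (CPM + 10), antibody over control IgG (x axis), for 12 gene lists (y axis) in Tcf7/Lef1 CD8, cytotoxic CD8, other CD8 and conventional CD4 cells. The interferon-stimulated and immediate-early lists lie between 0.23 and 0.35 in all 4 populations and glycolysis between -0.48 and -0.25, and inhibitory receptors lie at 0.37, 0.03, 0.28 and 0.16.

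The activin receptors were at low levels, and of 13 tested genes of the activin and TGF beta pathway 1, Acvr2a, was lower by 2-fold (0.598% of all genes were). Acvr2a (chr2:48814109-48903269), the main type II receptor, was at 26.5 CPM (20.8 to 33.2) with control IgG and 7.77 (4.25 to 13.0) with the antibody, from 75 and 14 UMIs in 42 and 11 cells, and 1 cell held 11.2% of them. In cytotoxic CD8 cells it was at 7.21 and 5.45 CPM and in conventional CD4 cells at 35.8 and 28.8. Acvr2b had 0.353 and 0.555 CPM, Acvr1c had 0 UMIs in both libraries, and Acvr1b, the type I receptor, was at 6.00 and 7.21 CPM. The TGF beta receptor Tgfbr2 was the most abundant gene of the list, at 234 and 257 CPM.

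Downstream, Smad2 was at 60.4 and 73.8 CPM, Smad3 at 101 and 102 and Smad4, the shared partner, at 102 and 92.7. The inhibitor Smad7, which the pathway itself induces, was at 195 and 210 CPM, and the repressors Ski and Skil at 84.0 and 118 and at 78.7 and 115. Pmepa1, a further induced inhibitor, was at 51.2 and 69.4 CPM. The list had a median log2 ratio of 0.16 (0.09 with median-ratio scaling), with 10 of 13 genes above 0, and medians of 0.14, 0.10 and 0.17 in cytotoxic CD8, other CD8 and conventional CD4 cells. The intervals of the ratio held 0 for Tgfbr2 and all 4 Smads and lay above 0 for Ski, Skil and Pmepa1.

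T cell receptor variable genes were read in few cells (64 and 48 with any Trbv gene), since 3' libraries seldom reach them. Among cells with any Trbv UMI, Trbv3 was found in 19 of 64, 29.7% (18.9 to 42.4), and in 12 of 48, 25% (13.6 to 39.6), of the Tcf7/Lef1 CD8 cells. In cytotoxic CD8 cells it was in 81 of 183, 44.3% (36.9 to 51.8), and in 62 of 134, 46.3% (37.6 to 55.1). Trbv3 led the Trbv genes by UMIs in both populations and both libraries. The intervals of the 2 populations overlapped in both libraries, and with pooled mice the share of single animals in these counts is not known.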

How the data were processed

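The authors deposited 1 unfiltered 10x matrix per library, and these deposited raw UMI counts per gene (32285) and barcode were used as they stand. The processing notes name Cell Ranger 7.0.1 and build mm10, the file header names Cell Ranger 4, and the sources differ on the 10x chemistry. Barcodes outside 1000 to 8500 detected genes or 1000 to 100000 UMIs, or with mitochondrial UMIs above 10%, were dropped, after the study's limits. Doublets were not removed.

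UMIs were summed per population and library and scaled to CPM. Log2 ratios used (CPM + 10) for genes with at least 50 UMIs, and a gene counted as past 2-fold at 1 or -1. With 1 library per group no test was run. Thinning drew 2000 UMIs per cell, and free RNA came from barcodes under 100 UMIs. Named genes between the libraries were the 12 highest and 12 lowest ratios whose counting interval excluded 0. Those against other populations (12 each way) and within the cells (10 each way) were taken by the smaller of the 2 libraries' ratios, with no interval. Listed genes were named as well. Some genes, and the planned results that need them, are not reported here, and their UMIs stayed in the totals. The members and lists were chosen with earlier results of these data known. Positions came from GENCODE M21 (32158 genes, 99.6%, matched by ID). The steps were checked on simulated counts. Python 3.11.15, numpy 2.4.6, scipy 1.17.1 and pandas 2.3.3 were used. Columns of other samples numbered 0.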

Additional observations from a re-analysis of the deposited data

How the results depend on the processing

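No paired analysis was possible because a single pooled library stood for each treatment, and no replicate could be left out. The count of 55 genes past 2-fold rested on the setting: it was 140 with a pseudocount of 1 CPM, 6 with 50 CPM, 12 with at least 200 UMIs, 7 with cells thinned to 2000 UMIs, and, in alternatives chosen after seeing the data, 3 without genes of which 1 cell held over 10% and 17 without the 17 and 6 cells above 3 times the median UMIs. The share of Tcf7/Lef1 CD8 cells had a log2 ratio of -0.19 among non-dividing CD8 cells and 0.01 among kept cells. Of 384 values of named genes between the libraries, 371 kept their sign. That tally overstates how stable the signs were, since the UMI filters repeat each gene's main value and the pseudocounts cannot turn a sign. Of the 384, 61 moved by more than their counting error. Among them was Dlk1 (2.59), which was 0.017 with no Mki67 or Top2a UMI, 0.055 with at least 2 Tcf7 or Lef1 UMIs and 0.22 with at least 1 Cd8 UMI. A further 11, with an interval away from 0, turned. With at least 1 Cd8 UMI these were Trf (-0.066), Dlg2 (-0.16), Ccnd1 (-0.67) and Igfbp4 (-0.75). Trf also turned with at least 2 Tcf7 or Lef1 UMIs (-1.04) and with no Mki67 or Top2a UMI (-0.95), and Ccl2 when thinned (0.052). Without the cells above 3 times the median, Slpi (0.41), C1qb (0.0053), Ptgis (0.16) and Il1b (-0.19) turned. List medians between the libraries also moved: inhibitory receptors, 0.37, were 0.22 with no Mki67 or Top2a UMI, 0.12 when thinned and 0.21 with a pseudocount of 50 CPM; glycolysis, -0.28, ran from -0.45 with no Mki67 or Top2a UMI to -0.04 when thinned; immediate-early genes, 0.26, were 0.12 with at least 2 Tcf7 or Lef1 UMIs; and the naive and homing median, -0.09, turned to 0.02 with at least 1 Cd8 UMI. Scaling by the median ratio took the effector and memory median from 0.14 to 0.07, that of the activin and TGF beta pathway from 0.16 to 0.09, of common gamma chain signalling from 0.11 to 0.04 and of MHC class I from 0.10 to 0.02. The same scaling took T cell receptor signalling from 0.21 to 0.14 and ribosomal protein genes from -0.11 to -0.19. It took naive and homing genes from -0.09 to -0.15 and T cell transcription factors from -0.01 to -0.08. Depth limits genes with few UMIs.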
